A study of Mus musculus with 26 samples.

Results

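The genes described here are 46 genes of neuronal differentiation and the synapse, taken by symbol from the 52535 gene rows of the count files. They fall into 5 classes by role. Proneural and neurogenic transcription factors are 12, genes of the neuronal cytoskeleton 13, neuronal RNA-binding proteins 7, guidance and adhesion molecules 4, and genes of the synapse, of transmitter synthesis and of secretory granules 10. Chromatin loops were taken where an anchor lay within 2500 bases of one of these genes in mm10. The genes were chosen by function and not by a cut on a measured value, though earlier results of these data were known.

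The cells came from E14, a mouse embryonic stem cell (ESC) line that was kept on gelatin in serum with LIF and inhibitors of MEK and GSK3. Samples are labelled NPC, for neural progenitor cells, and were taken on day 12 of neural induction. RNA-seq covered 2 WT-labelled and 2 KO-labelled libraries, the KO being of Klf4, a transcription factor that helps to hold ESCs in the naive state. RNA polymerase II HiChIP, which enriches pairs of distant DNA fragments joined at sites bound by the polymerase, was deposited as 1 loop list per label. The labels do not say whether the knockout line is 1 clone, and ESC ChIP-seq samples were not analysed here.

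In neural development, proneural transcription factors of the basic helix-loop-helix family start the neuronal programme in progenitors that leave the cell cycle. Later factors and RNA-binding proteins of the Elavl, Celf and Rbfox families shape neuronal transcripts, and a cytoskeleton of neuronal microtubule and intermediate filament proteins supports neurites. Guidance receptors steer axons, and vesicle proteins such as Syt1 and Snap25 release transmitter. In non-neuronal cells many genes of these late classes are repressed through REST and its corepressors.

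Klf4 RNA ran against the labels. The KO-labelled libraries held 2571 and 2538 of its counts and either WT-labelled library 0, so every direction below is between labelled groups and cannot be read as the effect of losing Klf4. In the loop lists, 32 tags of kept loops lay at Klf4 in the WT-labelled list and 4 in the KO-labelled list, and anchors covered its start in both. By label, RNA and loop tags at Klf4 thus ran opposite ways, and whether a label means the same genotype in RNA-seq and HiChIP cannot be told from these files. If the labels of 1 assay were exchanged, every pairing of an RNA direction with a loop direction below would turn round. Gene counts per RNA-seq library ran from 29835774 to 37703866, and 3 counts equalled 0.0836 to 0.108 CPM (counts scaled to library size with TMM factors). Across genes, replicates of the same label had r = 0.988 and 0.990, and pairs of libraries with unlike labels 0.878 to 0.881.

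The markers of the labelled cell type were uneven, and in WT-labelled libraries several were at or near 0 CPM. Over all genes tested, 37.2% were called higher and 35.8% lower in KO-labelled libraries, and the marker calls stand beside these shares. Of 10 neural progenitor markers, 8 were higher and 1 lower in KO-labelled libraries. Among them Pax6, a transcription factor of neural progenitors, had 0.17 and 0 CPM in WT-labelled and 3.50 and 3.62 CPM in KO-labelled libraries. Fabp7, a radial glia gene, had 28 and 25 counts in KO-labelled libraries and, like Hes5, 0 in either WT-labelled library. Pax6 and Fabp7 passed the filter on low counts through the KO-labelled libraries alone, so their direction was fixed by it. The 10 pluripotency markers together held 8377 and 8398 CPM in WT-labelled libraries and 4695 and 4749 CPM in KO-labelled libraries. Of these 8 were called lower and 2 higher. Progenitor markers summed to 646 and 632 CPM and to 778 and 820 CPM. Most of that sum in each library was Sox2, the 1 called lower, with 542 and 529 against 438 and 473 CPM. Mesoderm and fibroblast markers summed to 10.9 and 10.4 CPM in WT-labelled libraries, with Mesp1 and Postn at 0, and to 454 and 440 CPM in KO-labelled libraries, with 9 of 10 called higher. Endoderm markers summed to 3.36 and 3.68 against 80.7 and 78.6 CPM, with all 8 that were tested called higher. Afp was at 0 in WT-labelled and Ttr in KO-labelled libraries. Neural crest markers summed to 161 and 154 against 78.1 and 79.2 CPM, with 4 called higher, 3 lower, and Pax3 and Tfap2b at 0 in WT-labelled libraries. Astrocyte and oligodendrocyte markers summed to 54.0 and 46.7 against 98.5 and 106 CPM, with 5 called higher, 1 lower, and Aqp4, Slc1a2 and Olig2 at 0 in WT-labelled libraries. The part of these other cells in the results below was not tested. In bulk libraries, fewer cells of a type and less RNA per cell cannot be told apart.

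Across the 46 genes, summed RNA was higher in the KO-labelled libraries, while most of the transcription factors that open the programme had few counts in either group. Summed levels were 564 and 542 CPM in the WT-labelled libraries and 680 and 675 CPM in the KO-labelled libraries. CPM values are not divided by transcript length, so the order of genes by CPM is an order of counts. Stmn2 alone made up most of the WT-labelled sum. Without it the sums were 200 and 194 CPM against 515 and 510 CPM. A mean of at least 1 CPM was reached by 22 of the 46 genes in WT-labelled and by 30 in KO-labelled libraries. Dcx, Myt1l, Slc17a6 and Ebf3 were without a count in the WT-labelled libraries, and none had 0 in both KO-labelled libraries.

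Of the 46 genes, 33 passed the filter on low counts. In edgeR's quasi-likelihood test with Benjamini-Hochberg adjustment, 23 of the 33 were higher in KO-labelled libraries, 6 were lower and 4 were not called at an adjusted p of 0.05. Over all 17273 genes tested, 37.2% were called higher, 35.8% lower and 73.1% either way. At least 2-fold and called were 21 of the 33 upward and 5 downward, against 22.3% and 11.4% of all genes. The median log2 change (KO-labelled over WT-labelled) of the 33 genes was 1.52, and that of all genes tested 0.026. These counts lean on the filter. Only 24 of the 33 reached the minimum in both libraries of each group. A further 8 genes (Insm1, Rbfox3, Celf3, L1cam, Robo2, Syt1, Snap25 and Syp) reached it in both libraries of the KO-labelled group alone. Insm1, Robo2, Syt1 and Snap25 lay below it in both WT-labelled libraries, so the filter fixed their rise. For Rbfox3, Celf3, L1cam and Syp a single WT-labelled library reached it, so the filter favoured a rise. On CPM, the groups did not overlap for 39 of the 46 genes, against 86.3% of all genes tested. The groups overlapped for Neurog2, Nhlh2, Myt1, Myt1l, Dcx, Gad2 and Chgb.

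**Figure D1:**
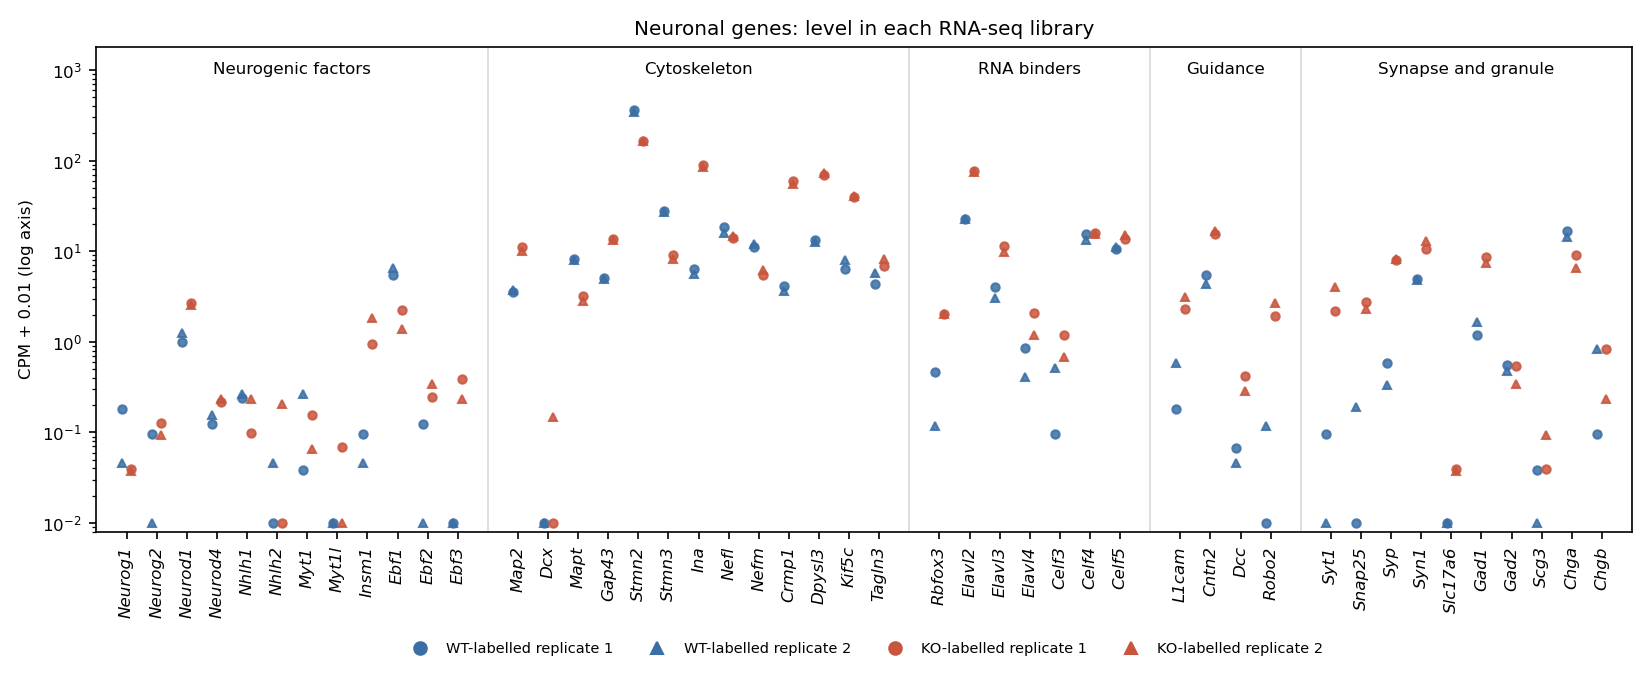
Level of each of the 46 genes in the 4 RNA-seq libraries, by role, in CPM on a logarithmic axis, with the small constant named on it added so that 0 can be drawn. Each point is 1 library. Stmn2 has the highest CPM in both groups, and Ina, Crmp1, Syp and Snap25 lie apart between the groups, while most transcription factors lie below 1 CPM in both.

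The DNA just before the transcription start is shown for 6 genes that have a HiChIP anchor over a start in at least 1 list and were called with a large change. Syt1, Robo2, Crmp1 and Gad1 were higher in KO-labelled libraries, and Ebf1 and Stmn3 were lower. Each sequence is the 250 bases before 1 annotated start in RefSeq (GRCm38.p6, the assembly of mm10), 5′ to 3′ on the gene's strand. Positions are chr10:109010976-109011225 (minus strand) for Syt1, chr16:74411826-74412075 (minus) for Robo2, chr5:37245514-37245763 (plus) for Crmp1, chr2:70561879-70562128 (plus) for Gad1, chr11:44617850-44618099 (plus) for Ebf1 and chr2:181314501-181314750 (minus) for Stmn3. Capitals mark a match, on either strand, to GGGNGTG, a motif of the KLF type, or to CAGNTG, the E-box bound by proneural factors. The REST element was searched by its parts, the left one as TTCAGCACC and the right one in its consensus letters.
Syt1: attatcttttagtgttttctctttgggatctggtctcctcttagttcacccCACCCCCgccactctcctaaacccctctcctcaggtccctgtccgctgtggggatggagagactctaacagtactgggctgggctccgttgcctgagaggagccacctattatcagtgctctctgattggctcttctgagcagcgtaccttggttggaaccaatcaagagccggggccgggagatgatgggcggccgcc
Robo2: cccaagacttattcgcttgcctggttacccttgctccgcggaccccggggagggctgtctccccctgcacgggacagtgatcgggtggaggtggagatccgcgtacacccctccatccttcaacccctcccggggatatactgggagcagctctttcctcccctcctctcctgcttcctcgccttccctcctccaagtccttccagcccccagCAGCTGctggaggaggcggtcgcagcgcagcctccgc
Crmp1: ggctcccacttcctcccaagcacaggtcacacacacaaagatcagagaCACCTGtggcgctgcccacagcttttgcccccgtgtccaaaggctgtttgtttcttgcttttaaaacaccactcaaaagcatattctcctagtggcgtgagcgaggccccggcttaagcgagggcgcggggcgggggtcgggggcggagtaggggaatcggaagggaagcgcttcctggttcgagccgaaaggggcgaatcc
Gad1: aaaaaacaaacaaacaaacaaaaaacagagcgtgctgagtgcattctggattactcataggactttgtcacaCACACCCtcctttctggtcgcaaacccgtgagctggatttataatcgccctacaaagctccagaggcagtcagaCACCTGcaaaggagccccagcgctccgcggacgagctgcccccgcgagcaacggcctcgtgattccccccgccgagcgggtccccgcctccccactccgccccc
Ebf1: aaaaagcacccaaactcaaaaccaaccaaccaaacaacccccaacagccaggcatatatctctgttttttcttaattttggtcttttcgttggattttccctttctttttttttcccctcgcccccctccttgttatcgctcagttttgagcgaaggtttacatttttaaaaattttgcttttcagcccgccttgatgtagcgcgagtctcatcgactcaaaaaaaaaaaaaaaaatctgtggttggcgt
Stmn3: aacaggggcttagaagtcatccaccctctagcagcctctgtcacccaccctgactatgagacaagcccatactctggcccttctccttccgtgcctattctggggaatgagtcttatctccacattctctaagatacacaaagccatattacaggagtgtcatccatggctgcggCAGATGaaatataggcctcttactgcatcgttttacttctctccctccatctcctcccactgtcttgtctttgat

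In the Syt1 window a GGGNGTG match began 199 bases before the start, on the other strand. The Gad1 window held a GGGNGTG match 178 bases and a CAGNTG match 104 bases before the start, both on the other strand and not overlapping. CAGNTG matches lay 37 bases before the Robo2 start, 202 bases before the Crmp1 start and 75 bases before the Stmn3 start. The printed Ebf1 window held no match to any of the 4. Ebf1, Crmp1 and Syt1 each have 2 starts in the promoter table, and Robo2 has 3. Windows not printed held up to 2 GGGNGTG matches for Ebf1 and for Crmp1, up to 1 for Robo2, and 1 CAGNTG match for Syt1. The higher and the lower genes thus both include windows with an E-box.

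A start was in the promoter table for 35 of the 46 genes. GGGNGTG was found in at least 1 window of 19 of the 35 (54.3%), against 31.4% of the 17492 protein-coding genes with a start. CAGNTG was found for 20 of the 35 (57.1%), against 45.4%. The neuronal genes have more annotated starts per gene, 68 windows for 35 genes against 21263 for 17492. Counted by window, the shares were 44.1% against 28.6% for GGGNGTG and 50.0% against 42.0% for CAGNTG. TTCAGCACC was found for Syn1 alone of the 35, against 0.377% of all genes, and the right part of the element for none, against 0.154%. The median GC content of the windows was 56.2%, against 55.6% for all. A match shows that the letters are there and nothing about binding.

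Among the proneural and neurogenic transcription factors, the early members had few counts in both groups. Neurog1 and Neurog2, which commit progenitors to the neuronal fate, had 6 and 1 against 1 and 1 counts, and 3 and 0 against 4 and 3 counts, in WT-labelled and KO-labelled libraries. Neurod4 had 4 and 4 against 7 and 8 counts, Nhlh1 8 and 7 against 3 and 8, and Nhlh2 0 and 1 against 0 and 7. Of the zinc-finger factors that follow, Myt1 had 1 and 7 against 5 and 2 counts, and Myt1l 0 and 0 against 2 and 0. None of these 7 passed the filter, and at this depth no difference was detectable for them. The ratio of counts for Nhlh2, scaled to library size, was 6.26 with an exact 95% interval of 0.805 to 282, and for Neurog2 2.09 with an interval of 0.477 to 12.5. Such intervals cover counting error only.

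Of this class 3 factors passed the filter, and each was called. Neurod1, a factor of neuronal differentiation, had 1.00 and 1.23 CPM in WT-labelled and 2.68 and 2.54 CPM in KO-labelled libraries, a log2 change of 1.23 ± 0.34 (SE, n = 2 per group, edgeR adjusted p = 0.00258). Insm1, a zinc-finger factor of newly formed neurons and of endocrine cells, had 3 and 1 counts against 32 and 65 counts. Its log2 change was 4.36 ± 0.76 (edgeR adjusted p = 1.58e-05) and 5.11 without WT-labelled replicate 1. Both genes were higher in each KO-labelled than in each WT-labelled library, Insm1 from a level near the detection limit. Insm1 passed the filter through the KO-labelled libraries alone, so its direction was fixed by the filter.

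Of the Ebf factors, which act in postmitotic neurons and in other lineages, Ebf1 was lower in KO-labelled libraries. It had 5.41 and 6.46 CPM in WT-labelled and 2.22 and 1.39 CPM in KO-labelled libraries, a log2 change of -1.72 ± 0.26 (edgeR adjusted p = 2.40e-06). Ebf3 had 13 and 8 counts in KO-labelled libraries and 0 in either WT-labelled library, at least 3.11-fold higher when the WT-labelled side is set to 3 counts per library, and with no filter it was called (edgeR adjusted p = 0.00625). Ebf2 had 4 and 0 against 8 and 12 counts. Neither passed the filter. The class as a whole summed to 7.23 and 8.45 CPM in WT-labelled and 7.08 and 7.11 CPM in KO-labelled libraries, with Ebf1 as its highest member in WT-labelled libraries and Neurod1 in KO-labelled ones.

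The cytoskeletal genes split in both directions. Of 13 genes 12 were tested, 7 were higher and 4 lower in KO-labelled libraries, and the class summed to nearly the same level in both groups, 473 and 455 CPM against 487 and 483 CPM. Ina, the neuronal intermediate filament alpha-internexin, had 6.38 and 5.63 CPM in WT-labelled and 90.1 and 85.9 CPM in KO-labelled libraries, a log2 change of 3.86 ± 0.082 (edgeR adjusted p = 8.48e-23). Crmp1, which mediates semaphorin signals to the growth cone, had 4.13 and 3.61 against 60.2 and 55.8 CPM, a log2 change of 3.90 ± 0.10 (edgeR adjusted p = 6.62e-21). For both genes the groups stood about 15-fold apart and replicates were close. Dpysl3, of the same family as Crmp1, had 13.4 and 12.8 against 69.1 and 73.4 CPM, and Kif5c, a kinesin motor of axonal transport, had 6.32 and 8.05 against 39.4 and 40.4 CPM. Their log2 changes were 2.44 ± 0.075 and 2.48 ± 0.11 (edgeR adjusted p = 1.36e-19 and 2.34e-16).

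Smaller rises were measured for genes of growing neurites. Map2, a microtubule-associated protein of dendrites, had 3.56 and 3.76 CPM in WT-labelled and 11.02 and 9.95 CPM in KO-labelled libraries, a log2 change of 1.52 ± 0.17 (edgeR adjusted p = 2.11e-08). Gap43, a growth cone protein, had 5.01 and 4.91 against 13.8 and 13.2 CPM, a log2 change of 1.44 ± 0.15 (edgeR adjusted p = 3.34e-09). Tagln3 had 4.30 and 5.71 against 6.91 and 8.22 CPM. Its log2 change of 0.61 ± 0.19 (edgeR adjusted p = 0.00617) was not called without WT-labelled replicate 1 (adjusted p = 0.0697) or without KO-labelled replicate 2 (0.0845). Dcx, doublecortin of migrating young neurons, had 0 counts in 3 libraries and 5 counts in KO-labelled replicate 2.

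In KO-labelled libraries 4 cytoskeletal genes were lower, all with groups that did not overlap. Stmn2, a tubulin-binding stathmin of axon growth and the highest gene of the class, had 364 and 348 CPM in WT-labelled and 165 and 164 CPM in KO-labelled libraries, a log2 change of -1.11 ± 0.033 (edgeR adjusted p = 6.45e-20). Its paralogue Stmn3 had 28.1 and 27.2 against 9.15 and 8.22 CPM, a log2 change of -1.67 ± 0.11 (edgeR adjusted p = 8.11e-13). Mapt, the microtubule-associated protein tau of axons, had 8.12 and 7.91 against 3.21 and 2.84 CPM, a log2 change of -1.41 ± 0.20 (edgeR adjusted p = 6.02e-07). The dendritic Map2 and the axonal Mapt were therefore called in opposite directions. Nefm, the medium neurofilament, had 11.1 and 12.0 against 5.45 and 6.13 CPM, a log2 change of -0.99 ± 0.15 (edgeR adjusted p = 2.88e-06). Nefl, the light neurofilament, whose gene lies 30.4 kb from Nefm on chromosome 14, had 18.3 and 16.0 against 14.1 and 14.9 CPM. It was not called, with a log2 change of -0.25 ± 0.11 (edgeR adjusted p = 0.0544), but was called without WT-labelled replicate 2 (-0.35, adjusted p = 0.0118).

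**Figure D2:**
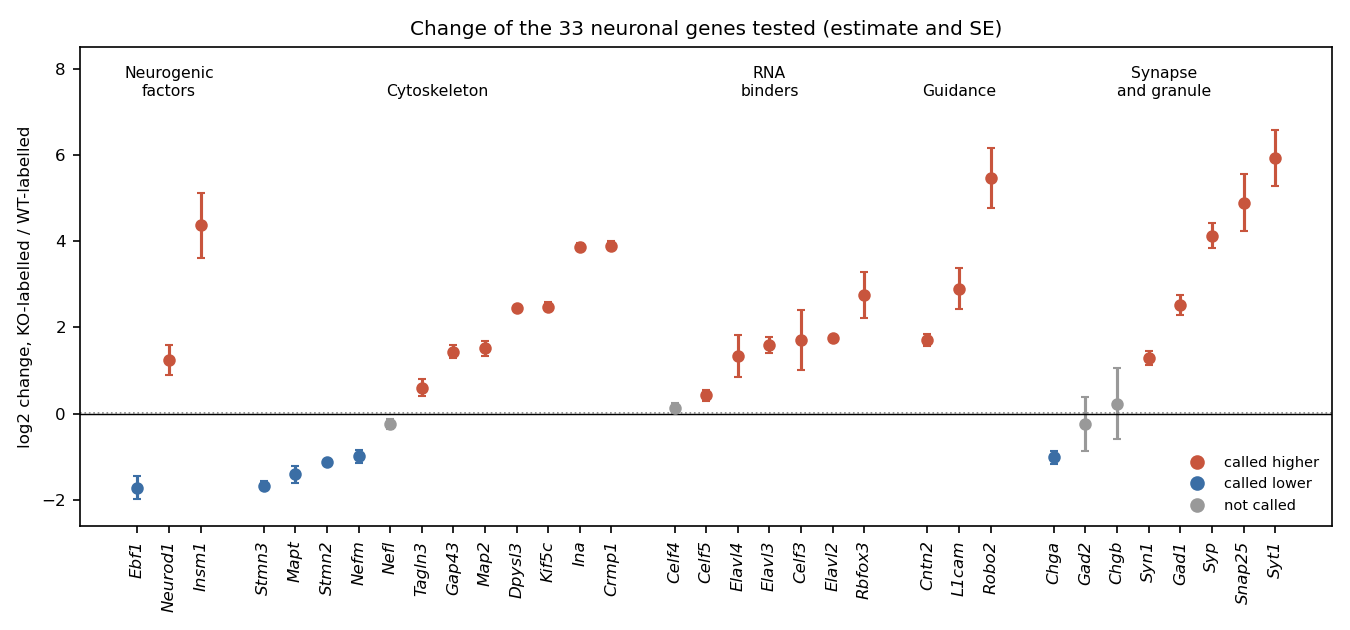
Log2 change, KO-labelled over WT-labelled libraries, of the 33 genes tested, by role, with bars of 1 standard error (n = 2 per group) and colours for genes called higher, lower or not called by edgeR. All 7 RNA binders lie above 0, and the cytoskeletal genes spread from -1.67 (Stmn3) to 3.90 (Crmp1). Among the RNA binders, Rbfox3 and Celf3 passed the filter through the KO-labelled libraries alone.

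RNA-binding proteins were called in 1 direction only, 6 of 7 higher in KO-labelled libraries, against 37.2% of all genes tested. Of these, Rbfox3 and Celf3 reached the minimum in both libraries of the KO-labelled group alone, so their direction was favoured by the filter. Summed levels were 53.7 and 50.8 CPM against 123 and 119 CPM. Elavl2, a neuronal Hu protein and the highest of the class, had 22.4 and 22.6 CPM in WT-labelled and 76.7 and 74.9 CPM in KO-labelled libraries, a log2 change of 1.75 ± 0.065 (edgeR adjusted p = 6.59e-18). Elavl3 had 3.99 and 3.03 against 11.5 and 9.84 CPM, a log2 change of 1.59 ± 0.18 (edgeR adjusted p = 2.43e-08). The 2 Hu proteins thus stood about 3-fold apart between groups. Elavl4 had 0.85 and 0.40 against 2.07 and 1.17 CPM, a log2 change of 1.34 ± 0.48 (edgeR adjusted p = 0.0160). It was not called without WT-labelled replicate 2 (adjusted p = 0.0985) or without KO-labelled replicate 1 (0.262), and its log2 change was 2.01 without WT-labelled replicate 1.

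Rbfox3, the NeuN antigen and splicing regulator of mature neurons, had 0.46 and 0.11 CPM in WT-labelled and 2.01 and 2.01 CPM in KO-labelled libraries, a log2 change of 2.75 ± 0.53 (edgeR adjusted p = 5.17e-05). Without WT-labelled replicate 1 it was 4.16 and without WT-labelled replicate 2 it was 2.12. Of the Celf proteins, which regulate splicing and translation, 2 were called, and each lost its call when a library was left out. Celf5 had 10.5 and 11.1 against 13.8 and 15.1 CPM, a log2 change of 0.42 ± 0.12 (edgeR adjusted p = 0.00352) that was not called without KO-labelled replicate 2 (adjusted p = 0.0639). Celf4 had 15.4 and 13.1 against 15.7 and 15.5 CPM and was not called (log2 change 0.13 ± 0.12, edgeR adjusted p = 0.326). Scaling by library size alone gave it 0.34 and an adjusted p of 0.0120. Celf3 had 0.09 and 0.51 against 1.20 and 0.67 CPM (log2 change 1.71 ± 0.69, edgeR adjusted p = 0.0303), and lost its call under DESeq2 (adjusted p = 0.0826), without WT-labelled replicate 1 (0.294) and without KO-labelled replicate 1 (0.307). Its log2 change was 0.87 without WT-labelled replicate 1 and 3.38 without WT-labelled replicate 2.

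Guidance and adhesion genes were low in WT-labelled libraries and higher in KO-labelled ones, 3 of 3 tested, against 37.2% of all genes tested. Of these, L1cam and Robo2 reached the minimum in both libraries of the KO-labelled group alone. The filter thus fixed the direction of Robo2 and favoured that of L1cam. Cntn2, an axonal adhesion molecule and the highest of the class, had 5.53 and 4.33 CPM in WT-labelled and 15.5 and 16.9 CPM in KO-labelled libraries, a log2 change of 1.71 ± 0.15 (edgeR adjusted p = 1.43e-10). L1cam, an adhesion molecule of growing axons, had 0.17 and 0.58 against 2.30 and 3.09 CPM, a log2 change of 2.90 ± 0.47 (edgeR adjusted p = 6.51e-06) that was 2.21 without WT-labelled replicate 1 and 3.94 without WT-labelled replicate 2. Robo2, a receptor for the repellent Slit, had 0 and 3 counts against 66 and 95 counts. Scaled to library size that is a ratio of 48.0 with an exact 95% interval of 16.1 to 235 (edgeR adjusted p = 1.76e-07). Its fitted log2 change of 5.46 ± 0.70 was 4.35 without WT-labelled replicate 1 and 9.33 without WT-labelled replicate 2, when the WT-labelled side held 0 counts and the fit leaned on the prior count. Dcc, a receptor for the attractant netrin, had 2 and 1 against 14 and 10 counts, a ratio of 7.16 with an interval of 2.17 to 37.1, and did not pass the filter.

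Vesicle release genes stood near the detection limit in WT-labelled libraries. Syt1, the calcium sensor of transmitter release, had 3 and 0 counts in WT-labelled and 74 and 146 counts in KO-labelled libraries, a scaled ratio of 65.6 with an interval of 22.2 to 321 (edgeR adjusted p = 1.84e-08). Snap25, a SNARE of the plasma membrane, had 0 and 5 against 94 and 82 counts, a log2 change of 4.89 ± 0.66 (edgeR adjusted p = 4.62e-07). The fitted log2 changes of both rest on few WT-labelled counts. That of Syt1, 5.93 ± 0.65, was 9.67 and 5.12 without WT-labelled replicate 1 and 2, and that of Snap25 was 3.77 and 9.46. Syp, a vesicle membrane protein, had 0.57 and 0.32 against 8.04 and 8.11 CPM, a log2 change of 4.13 ± 0.29 (edgeR adjusted p = 2.28e-12). Syt1, Snap25 and Syp reached the minimum in both libraries of the KO-labelled group alone. The filter thus fixed the direction of Syt1 and Snap25 and favoured that of Syp. Syn1, which tethers vesicles, was already detected in WT-labelled libraries. It had 4.87 and 4.80 CPM there and 10.5 and 13.1 CPM in KO-labelled libraries, a log2 change of 1.29 ± 0.16 (edgeR adjusted p = 1.10e-07). The Syn1 span overlaps the genes Araf and Timp1, and that of Syt1 overlaps Gm5136. Ina overlaps Nt5c2, Crmp1 overlaps Evc and Celf3 overlaps Riiad1. The strand setting of the counting is not given in the sources used here, so reads of these pairs cannot be told apart.

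Of the 3 transmitter genes, 1 was called, Gad1. Gad1, which makes GABA, had 1.17 and 1.66 CPM in WT-labelled and 8.60 and 7.50 CPM in KO-labelled libraries, a log2 change of 2.52 ± 0.24 (edgeR adjusted p = 6.82e-10). Its paralogue Gad2 had 0.54 and 0.47 against 0.52 and 0.33 CPM and was not called (log2 change -0.24 ± 0.63, edgeR adjusted p = 0.747). The difference between the changes of Gad1 and Gad2 was not tested. Slc17a6, the vesicular glutamate transporter of excitatory neurons, had 0 counts in both WT-labelled and 1 count in each KO-labelled library.

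Of the secretory granule genes, 1 was lower in KO-labelled libraries. Chga, chromogranin A of neuroendocrine granules, had 16.8 and 14.3 CPM in WT-labelled and 8.98 and 6.49 CPM in KO-labelled libraries, a log2 change of -1.01 ± 0.15 (edgeR adjusted p = 2.10e-06). It was the highest of the class in WT-labelled libraries. Chgb had 3 and 23 counts against 28 and 8 counts, with replicates further apart than groups (log2 change 0.23 ± 0.82, edgeR adjusted p = 0.811). Scg3 had 1 and 0 against 1 and 3 counts. Markers of pancreatic and enteroendocrine cells, which share this granule programme, summed to 2.48 and 1.70 against 1.31 and 1.84 CPM. Of that list Neurog3, a factor of endocrine progenitors, was called lower, with 67 and 35 against 2 and 13 counts. Its part in the granule genes was not tested.

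A further list held 60 other neuronal genes. Of these 14 were not tested, 30 were higher in KO-labelled libraries, 5 were lower and 11 were not called. Of all genes tested, 37.2% were higher and 35.8% lower. Among the tested genes of the list the median log2 change was 1.03. The list summed to 397 and 392 CPM in WT-labelled and 774 and 770 CPM in KO-labelled libraries. Prox1, a homeodomain factor of neurons leaving the cell cycle, had 0 and 6 counts against 137 and 93 counts (log2 change 5.03 ± 0.62, edgeR adjusted p = 3.02e-07). Isl1, a LIM homeodomain factor of motor and sensory neurons, had 1 and 0 against 22 and 17 counts, a scaled ratio of 34.9 with an exact 95% interval of 5.91 to 1413 (edgeR adjusted p = 0.000390). Prox1 and Isl1 passed the filter through the KO-labelled libraries alone, so their direction was fixed by it. The largest fall was that of Scn3a, a voltage-gated sodium channel, with 5.67 and 4.69 against 0.35 and 0.22 CPM (log2 change -4.17 ± 0.36, edgeR adjusted p = 1.83e-10). Gng3, a G protein subunit, had 27.6 and 31.2 against 15.8 and 12.1 CPM (log2 change -1.07 ± 0.12, edgeR adjusted p = 2.24e-08).

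As a list, repressors of neuronal genes had no common direction of calls. They summed to 2680 and 2685 CPM in WT-labelled and 1889 and 1893 CPM in KO-labelled libraries. Of 18 genes 17 were tested, 8 were higher and 7 lower, with a median log2 change of 0.085. REST itself, encoded by Rest, had 290 and 291 CPM in WT-labelled and 231 and 229 CPM in KO-labelled libraries, a log2 change of -0.34 ± 0.031 (edgeR adjusted p = 3.76e-10). Its corepressor Rcor2 had 276 and 284 against 138 and 143 CPM, and the deacetylase Hdac1 322 and 316 against 163 and 167 CPM, log2 changes of -0.99 ± 0.034 and -0.95 ± 0.032. The corepressors Sin3a, Kdm1a and Hdac2 were lower as well, with log2 changes of -0.82 ± 0.034, -0.68 ± 0.034 and -0.31 ± 0.035 (edgeR adjusted p at most 1.52e-08). Rcor1 and Rcor3 rose, by log2 changes of 0.39 ± 0.074 and 0.68 ± 0.23 (edgeR adjusted p = 6.57e-05 and 0.0106). Sin3a, Kdm1a, Hdac2, Rcor1 and Rcor3 were named after their values were seen. Ctdspl, a small phosphatase of the REST complex, rose as well, with 2.14 and 2.89 against 13.96 and 14.9 CPM, and so did Id2, an antagonist of proneural factors, with 4.02 and 2.35 against 11.8 and 13.2 CPM. Their log2 changes were 2.54 ± 0.17 and 1.95 ± 0.19. Rcor2, Hdac1, Ctdspl and Id2 were all called by edgeR, with adjusted p between 1.18e-18 and 5.68e-09.

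HiChIP loops at these genes were counted from loops that had 2 tags or more (a tag is a read pair joining both anchors) and an FDR no higher than 0.01, called kept loops. Each label has 1 list, with replicates pooled, so loop values carry no replicate check and no test, and their exact 95% intervals cover counting error only. The WT-labelled list held 22148 kept loops with 175142 tags and the KO-labelled list 57463 with 285890 tags. Anchors of the full lists covered 92.5 Mb and 173 Mb, with mean lengths of 3834 and 3382 bases. Values are therefore also given as a share, in tags per 100000 tags of kept loops of that list, which still depends on how much was called. A gene without a kept loop can still have listed loops that missed the thresholds. For genes with kept loops in 1 list alone, the tags of every listed loop are therefore given. For some of them their share of all listed tags is given too. Loop lengths are distances between anchor centres.

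Few of the 46 genes had a kept loop in the WT-labelled list. There were 5 (10.9%), which were Mapt, Stmn2, Stmn3, Ebf1 and Syt1, against 37.8% of all 21887 protein-coding genes. In the KO-labelled list there were 19 (41.3%), against 54.3% of all, and both shares lie below the background although the 46 genes are long (median span 49.7 kb against 17.2 kb). Mapt, Ebf1 and Syt1 had loops in both lists, 16 in the KO-labelled list alone, 2 (Stmn2 and Stmn3) in the WT-labelled list alone and 25 in neither. An anchor of any listed loop covered a start for 5 of 35 genes in the WT-labelled list (14.3%, interval 4.81 to 30.3) and for 18 in the KO-labelled list (51.4%, 34.0 to 68.6), against 49.5% and 61.1% of all genes with a start. Stmn3, Tagln3, Elavl4 and Gad1 had such an anchor in both lists, Elavl2 in the WT-labelled list alone, and 14 genes in the KO-labelled list alone, Syt1, Robo2, Crmp1 and Ebf1 of the printed windows among them.

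Set beside the RNA by label, with the doubt over labels given above, the loops fell as follows. Of the 6 genes lower in KO-labelled libraries, 4 had a kept loop in the WT-labelled list (Ebf1, Mapt, Stmn2 and Stmn3) and 2 in the KO-labelled list (Ebf1 and Mapt). Of the 23 higher genes, 1 had a kept loop in the WT-labelled list (Syt1) and 10 in the KO-labelled list. Among the 13 genes not tested for low counts, 5 had kept loops in the KO-labelled list (Nhlh1, Myt1, Myt1l, Ebf2 and Ebf3), with up to 38 tags, so a loop at a gene did not go with a detectable level of its RNA in each case.

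Mapt, on chromosome 11 from 104229409 to 104332090, carried most of the WT-labelled tags. It had 29 kept loops with 223 tags in the WT-labelled list, a share of 127 per 100000 (interval 111 to 145), and 5 kept loops with 14 tags in the KO-labelled list, a share of 4.90 (2.68 to 8.22). The shares stood 26.0-fold apart, and over every listed loop they were 74.2 and 11.6. In neither list did a kept loop have an anchor within 2500 bases of either annotated end of Mapt. By label the Mapt RNA was also higher on the WT-labelled side, 2.65-fold, a pairing that would reverse if the labels of 1 assay were exchanged. The strongest loop, with 93 of the 223 tags, joined 2 neighbouring anchors inside the gene, with centres 15.0 kb apart. They ran from 104285798 to 104308553 and from 104309449 to 104314924, so their facing ends lay much closer than their centres. The first of them is far longer than the mean anchor of that list, 3834 bases. The same anchors reached Kansl1 through loops of 32, 13 and 10 tags, 146, 172 and 131 kb long. A loop of 11 tags to the anchor at Cdc27 and Myl4, 252 kb away, was kept in both lists, with 2 tags in the KO-labelled list. Besides 1 to Tlk2 it was the only loop at any of the 46 genes that was kept in both.

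Both stathmin genes had kept loops in the WT-labelled list alone. Stmn3 had 3 loops with 24 tags, a share of 13.7 (8.78 to 20.4), and none kept in the KO-labelled list. Over every listed loop Stmn3 had 67 tags in the WT-labelled and 20 in the KO-labelled list, shares of 16.5 and 2.05. The loop of 19 tags joined the anchor over the Stmn3 start, printed above, to an anchor at Rtel1, with centres 8.24 kb apart. It was listed with 2 tags but not kept in the KO-labelled list. Stmn2 had 7 loops with 16 tags, a share of 9.14 (5.22 to 14.8), the strongest with 4 tags to Zfp704 at 1096 kb. Over every listed loop it had 39 and 3 tags, shares of 9.58 and 0.307. By label, the RNA of both genes was also higher on the WT-labelled side, with the same limit as for Mapt. Ebf1 had 1 loop in each list, of 3 and of 2 tags, too few to order.

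Rbfox3, Myt1 and Myt1l had many loops in the KO-labelled list and none kept in the WT-labelled list. Rbfox3 had 18 loops with 43 tags, a share of 15.0 (10.9 to 20.3), and over every listed loop 313 tags against 16 in the WT-labelled list, shares of 32.0 and 3.93. Its loops had 2 to 5 tags each and reached, among others, anchors at Cyth1 and at Timp2 and Cep295nl. Myt1 had 9 loops with 38 tags, a share of 13.3 (9.41 to 18.2). Among them were 14 tags between anchors within the gene, with centres 8.00 kb apart, and 9 tags over 59.0 kb. Myt1 and Stmn3 lie 449 kb apart on chromosome 2, and their shares differed in opposite directions. Myt1l had 7 loops with 16 tags, a share of 5.60 (3.20 to 9.09). For Myt1 and Myt1l the WT-labelled list held no loop at any FDR, against 251 and 135 listed tags in the KO-labelled list. By label the RNA of Rbfox3 was higher in KO-labelled libraries, while Myt1 and Myt1l had at most 7 counts in any library. No anchor covered the Rbfox3 start of the promoter table in either list. Of its 18 loops, 1 had an anchor within 2500 bases of an annotated end of the gene.

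Celf4 and Cntn2 were the other genes whose intervals lay apart with the KO-labelled list above. Celf4 had 4 loops with 19 tags, a share of 6.65 (4.00 to 10.4), 13 of the tags within the gene over 9.36 kb, and its RNA was not called. Over every listed loop Celf4 had 115 tags against 1, shares of 11.8 and 0.246. Cntn2 had 5 loops with 15 tags, a share of 5.25 (2.94 to 8.65), the strongest with 6 tags to Lemd1 at 324 kb, and 54 listed tags against 0. Gad1 had 5 loops of 2 tags each, 3 of them to Myo3b. Its share was 3.50 (1.68 to 6.43), an interval that reached the share of 3 tags in the other list. Over every listed loop Gad1 had 65 tags against 11, shares of 6.65 and 2.70. Syt1 had 1 loop of 8 tags over 277 kb in the WT-labelled list and 1 of 2 tags in the KO-labelled list. Its shares of 4.57 (1.97 to 9.0) and 0.700 (0.0847 to 2.53) overlapped. The remaining genes with kept loops had 2 to 7 kept tags, all in the KO-labelled list. These were Ebf3 with 7, Ebf2 with 6, Celf3 with 5 and Nhlh1 with 4. Insm1 and Elavl3 had 3, and Dpysl3, Gap43, Celf5 and Chgb 2. Over every listed loop Ebf3 had 50 tags in the KO-labelled and 2 in the WT-labelled list. In the same order Ebf2 had 30 and 0, Celf3 45 and 0, Nhlh1 45 and 14, and Insm1 44 and 3. Elavl3 had 59 and 0, Dpysl3 23 and 0, Gap43 18 and 5, Celf5 43 and 20, and Chgb 9 and 0. For Celf5 the shares of all listed tags were 4.40 and 4.91, so the WT-labelled share was the higher.

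**Figure D3:**
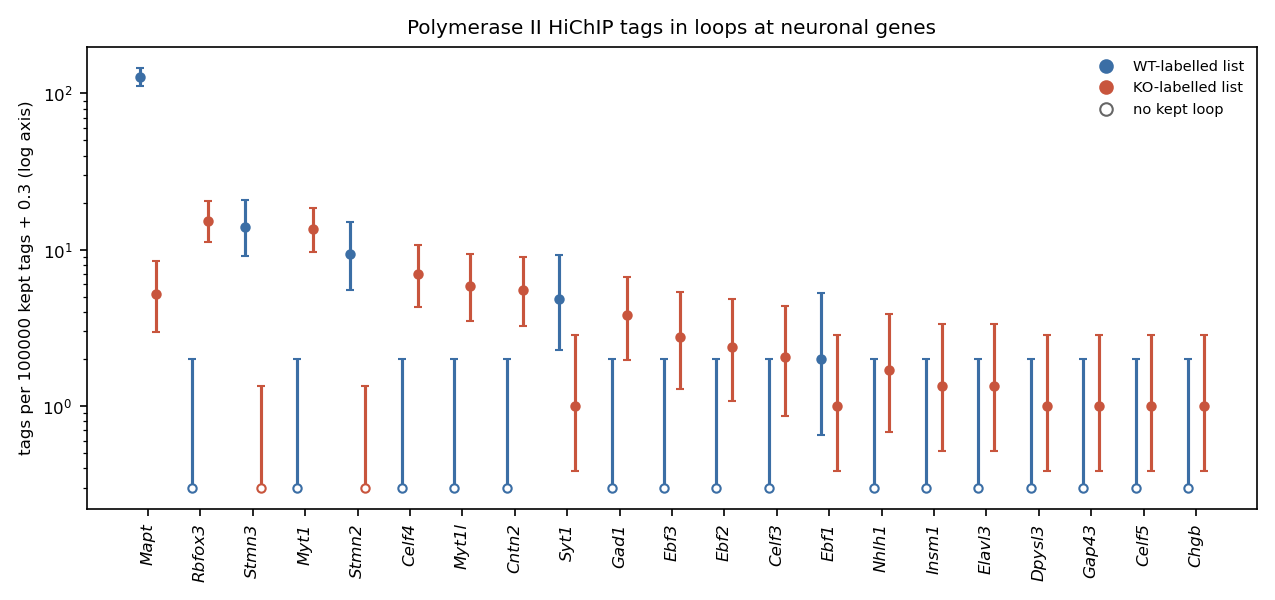
Tags of kept loops per 100000 tags of each list at the 21 genes with a kept loop in either list, with exact 95% intervals. The axis is logarithmic, with the small constant named on it added so that 0 can be drawn. Open points have no kept loop, and their bar ends at the share of 3 kept tags, though loops that missed the thresholds may be listed there. Mapt, Stmn3 and Stmn2 stand higher in the WT-labelled list, and Rbfox3, Myt1, Celf4, Myt1l and Cntn2 in the KO-labelled list.

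The sum over all 46 genes turned on Mapt. Together the genes had 41 loops with 274 tags in the WT-labelled list, a share of 156 (138 to 176), and 70 loops with 195 tags in the KO-labelled list, a share of 68.2 (59.0 to 78.5). Without Mapt the WT-labelled share was 29.1 (21.7 to 38.3) and the KO-labelled share 63.3 (54.4 to 73.2), the opposite order. Among genes with at least 20 tags, shares differed 2-fold or more upward in the KO-labelled list for Rbfox3 and Myt1 and downward for Mapt and Stmn3, where 51.2% of all 6370 such genes were higher and 27.6% lower.

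Most loops at these genes were thin. In the WT-labelled list 23 of 41 had 2 tags (56.1%), and in the KO-labelled list 50 of 70 (71.4%). The median distance between anchor centres was 829 kb in the WT-labelled and 381 kb in the KO-labelled list. No other protein-coding gene lay within 2500 bases of the far anchor for 12 of 41 and for 27 of 70 loops. These counts include the loops with both anchors at the same gene, 1 in the WT-labelled and 4 in the KO-labelled list. Of the 70 KO-labelled loops, 67 were not listed at any FDR in the WT-labelled list. Of the 41 WT-labelled loops, 28 were not listed in the KO-labelled list. The full WT-labelled list held 143451 loops and the full KO-labelled list 489409, so a KO-labelled loop had fewer loops to match. The share of all kept loops without a match was not measured, so these counts cannot be read as a trait of these genes.

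**Figure D4:**
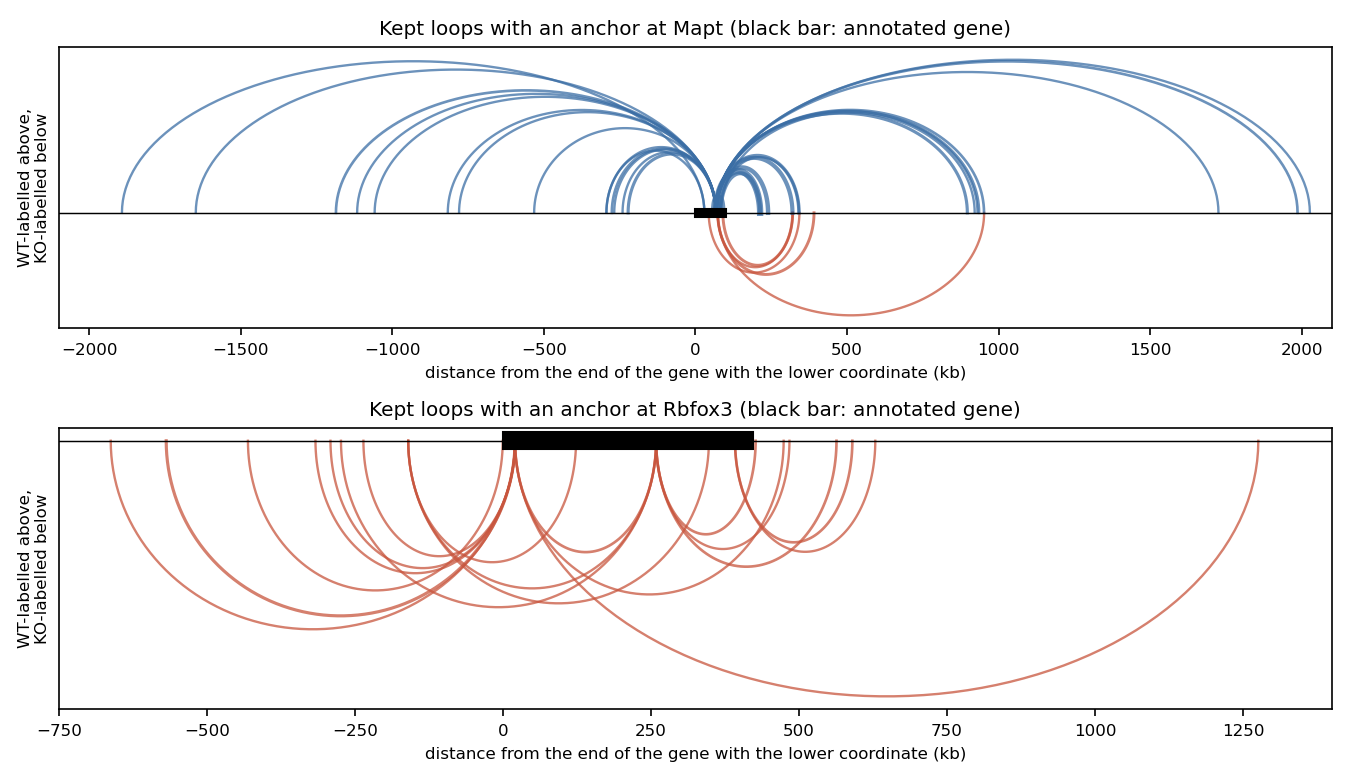
Kept loops at Mapt (top) and Rbfox3 (bottom), drawn as arcs between anchor centres over the distance in kb from the lower-coordinate end of the gene, which is the black bar. The WT-labelled list is above and the KO-labelled list below the line, and line width grows with the number of tags. Mapt has 29 arcs above and 5 below, and all 18 arcs of Rbfox3 lie below.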

How the data were processed

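The authors deposited raw counts per gene symbol, 1 file per RNA-seq library, and 1 loop list per label for RNA polymerase II HiChIP, with a count of tags and an FDR, which is a q-value, per loop. The submitters' processing notes name the build mm10 and the tools MACS2 2.2.7.1, HiC-Pro 2.11.1, Bowtie2 2.4.4, DESeq2 1.18.1, featureCounts 2.0.3 and HISAT2 2.1.0. For the loop caller and the strand setting of counting, nothing is given in the sources used here. Groups came from the sample titles. According to the series design the 2 libraries of a label are biological replicates, whose spread is what the p-values measure.

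The 5 rows of each count file that name no gene stayed out. Reads without a feature made up 6.05% to 8.07% of the column totals. Counts were filtered with filterByExpr (a minimum count of 10), scaled with TMM and tested with edgeR 4.0.16 (glmQLFit, robust, glmQLFTest, two-sided) in R 4.3.3, with Benjamini-Hochberg adjustment over 17273 genes. The code was tested on simulated data. Same-numbered replicates did not deviate together (correlation 0.0153), so no pairing was used. Where a group had 0 counts, bounds were set at 3 counts per library, and ratios of 1 to 3 counts carry exact 95% intervals. Kept loops had 2 tags or more and an FDR no higher than 0.01, and were assigned to a gene when an anchor lay within 2500 bases of its RefSeq span (GRCm38.p6). Loops of both lists matched where both anchors overlapped by at least 1 base. Promoter windows came from the RefSeq promoter table of the same assembly.

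The 46 genes and the other lists were chosen with earlier results of these data known. Values per library were printed for called genes with a log2 change of at least 1 and a mean of at least 1 CPM, and for the highest gene of each class. By rule, at most 2 rises and 2 falls of each other list were named, plus Klf4 and Rest. Further repressors were added after their values were seen. Other genes were named by count. Values of the remaining ones of the 46 genes were added to account for each. Alternatives were other scalings, no filter, DESeq2 1.42.0, a replicate block, leaving out each library, other loop thresholds and windows, and leaving out Mapt or Stmn2, which was chosen after seeing the data.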

Additional observations from a re-analysis of the deposited data

How the results depend on the processing

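Of 330 refits of the 33 genes tested, 317 gave the same direction and the same side of the threshold. The replicate block, with the replicate number as a term, left 23 genes called higher and 6 lower, and changed no call among them. It gave 29 higher and 4 lower other neuronal genes, against 30 and 5, and 12410 called genes, against 12618. Leaving out each library in turn gave 21 to 23 higher and 6 to 7 lower genes, 27 to 31 higher and 4 to 6 lower other neuronal genes, and 11683 to 12273 called genes overall. The lower other neuronal genes were 3 with library size alone, with upper-quartile factors and with DESeq2. Library size alone moved the median log2 change of all genes to 0.24 from 0.026 and the share of calls that were higher from 50.9% to 62.0%. Gad2 and Chgb, which were not called, changed sign when a library was left out. Gad2 ranged from -0.59 to 0.047, the latter without KO-labelled replicate 2, and Chgb from -0.99 without KO-labelled replicate 1 and -0.68 without WT-labelled replicate 1 to 2.54 without WT-labelled replicate 2. The lost calls of Tagln3, Elavl4, Celf3 and Celf5, and those gained for Nefl and Celf4, stand beside their values above, and the cause was not tested.

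Loop values depended on the threshold. With every listed loop, the 46 genes had 244 WT-labelled and 1125 KO-labelled loops, and the shares of all tags were 141 and 166 per 100000, the reverse order of the kept loops. With 3 tags or more and an FDR no higher than 0.001 there were 17 and 15 loops, with a KO-labelled share of 33.9. With anchors within 2500 bases of either gene end there were 7 and 13 loops, with shares of 19.4 and 10.1. Without Mapt the WT-labelled share was 29.1. A window of 10000 bases gave 44 and 76 loops. Loops of 2 tags, the most common kind, are too thin to be ordered between lists.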
